A study of Mus musculus with 5 samples.

Results

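The genes described here were the clustered histone genes of mouse embryonic stem (ES) cells, chosen as every entry of the deposited expression table whose symbol starts with Hist1h, Hist2h, Hist3h or Hist4h. There were 68 such entries among the 24016 genes of the table. By type, 6 belonged to linker histone H1, 18 to H2a, 19 to H2b, 12 to H3 and 13 to H4. The H2b entries include Hist3h2bb-ps, a pseudogene by its symbol. By cluster, 54 belonged to Hist1 on chromosome 13, 10 to Hist2 on chromosome 3, 3 to Hist3 on chromosome 11 and 1, Hist4h4, stood alone on chromosome 6.

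The study sequenced RNA of ES cells from autoimmune-prone and other mouse strains, derived from embryos and kept with inhibitors of MEK and GSK3 (2i). The groups were NOD, a strain that develops autoimmune diabetes, with 2 lines (replicates 1 and 5), NZB, which is predisposed to hemolytic anemia, with 1 line, the library labelled v6.5 (v6.5 for short), a line of mixed 129 and C57BL/6 background, and B6 (C57BL/6), the strain without autoimmune disease, with 1 line. All lines received 2i, and the study cultured them without feeder cells. The table's header names 2 directories for B6 and none for v6.5, and the name of the column for NOD replicate 5 joins the numbers 5 and 6, so whether those labels each stand for 1 line of that kind is not known.

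Replication-dependent histone genes are transcribed mainly while DNA is copied, and their products package the new DNA: H2a, H2b, H3 and H4 form the nucleosome core and H1 binds the DNA between cores. Their messenger RNAs generally end in a conserved stem-loop rather than a poly(A) tail, and the stem-loop is bound by the protein that Slbp encodes. ES cells divide rapidly and spend much of the cycle in S phase. The RNA here was selected on poly-dT beads before sequencing, so the values measure histone RNA that passed that selection, not all histone RNA.

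The stem-loop was the clearest feature the symbols did not use. A search of GENCODE M21 transcripts (GRCm38) for a stem of 6 paired bases around the loop found it, written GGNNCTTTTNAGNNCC with N for the bases that vary, in 44 of the 68 genes (64.7%). Of the 24 genes without it, 12 had transcript models that hold the coding sequence only. Within the last 150 bases of a transcript it occurred in 22 of 21901 protein-coding genes (0.100%), and none of those lay outside the clusters. Another 22 clustered genes had over 150 annotated bases after it, found because their whole transcripts were searched. Other genes were searched in the last 150 bases only. Of the 6 forms found, the most frequent was shared by 26 genes. The sites of the genes whose values differed most between libraries are shown 5′ to 3′, with the stem-loop in capitals.
Hist1h3f: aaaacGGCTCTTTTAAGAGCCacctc
Hist1h2bg: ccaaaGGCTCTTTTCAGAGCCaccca
Hist1h2bf: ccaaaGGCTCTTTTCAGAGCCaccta
Hist1h2bm: acaaaGGCTCTTTTCAGAGCCactaa
Hist1h4n: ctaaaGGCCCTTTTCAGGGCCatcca
Hist1h4m: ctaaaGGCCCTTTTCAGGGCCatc
Hist4h4: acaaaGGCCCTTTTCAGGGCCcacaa
Hist1h4i: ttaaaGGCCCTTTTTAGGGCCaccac
Hist1h4j: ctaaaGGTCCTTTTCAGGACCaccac

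These sites differed in the middle of the stem and in the last base of the loop. The same form occurred in genes with different patterns, such as Hist1h2bg, lowest in the NOD lines, and Hist1h2bm, highest in them. Both of these genes were below B6 in NZB. Promoters were matched for 62 of the 68 genes in RefSeq (GRCm38.p6), over 250 bases before and 50 after the start and on both strands. TATAAA was present in 56.5% of them, against 15.7% of all 27025 promoters. CCAAT was present in 85.5%, against 41.1% of all promoters, and was found in every matched H1, H2a, H2b and H3 promoter but in 3 of 12 H4 promoters. The octamer ATTTGCAT was present in 22.6%, against 1.97% of all promoters: in 7 of 18 H2a and 7 of 16 H2b promoters, and in none of the H1, H3 and H4 promoters. Some H2a and H2b promoters overlap, such as those of Hist1h2ae and Hist1h2bg, so the same site can count for both genes.

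The 250 bases before the start are shown for Hist1h2bg (chr13:23571150-23571399, plus strand) and Hist1h4i (chr13:22041363-22041612, minus strand), a low and a high gene of NOD against B6, with any of those motifs, on either strand, in capitals. The H2b promoter holds all 3 motifs and the H4 promoter only TATAAA, and both are printed in the direction of transcription.
Hist1h2bg: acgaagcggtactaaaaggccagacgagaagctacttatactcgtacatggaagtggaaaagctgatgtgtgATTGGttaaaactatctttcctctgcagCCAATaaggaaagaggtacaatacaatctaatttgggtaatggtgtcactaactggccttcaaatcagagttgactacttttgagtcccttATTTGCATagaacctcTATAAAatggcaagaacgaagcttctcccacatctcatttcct
Hist1h4i: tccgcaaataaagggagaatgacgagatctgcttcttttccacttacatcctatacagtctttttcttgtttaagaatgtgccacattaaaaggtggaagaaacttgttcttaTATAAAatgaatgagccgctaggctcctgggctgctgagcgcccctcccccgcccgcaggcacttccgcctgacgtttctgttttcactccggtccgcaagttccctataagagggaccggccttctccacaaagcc

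Depth and composition differed between libraries. The libraries held 7713133 to 21387796 recovered reads, NOD replicate 1 the fewest and NOD replicate 5 the most. The 45S ribosomal precursor Rn45s, which carries no poly(A) tail, had 1679140 and 202097 normalised reads in NOD replicates 1 and 5, 195128 in NZB, 1133491 in the library labelled v6.5 and 7817383 in B6. Values are therefore given as normalised reads, the deposited values divided by the library's composition factor (TMM). Among marker lists, Col1a1, Col1a2 and Col3a1, collagens of fibroblasts, fell in NOD against B6. The 4 fibroblast markers summed to 108 and 129 normalised reads in NOD replicates 1 and 5, 6708 in NZB, 545 in v6.5 and 4023 in B6, and their part in the histone values was not tested. The 8 ES cell markers were present in all libraries, at 30412 to 57669 normalised reads in sum. In NOD against B6, 1 of them, Zfp42, rose and 1, Klf4, fell. Zfp42 had 2414 and 10228 normalised reads in the NOD lines, 3218 in NZB, 1789 in v6.5 and 505 in B6 (limma adjusted p = 0.0267), and Klf4 had 634 and 576 in the NOD lines, 2132 in NZB, 1068 in v6.5 and 1979 in B6 (limma adjusted p = 0.0456).

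The summed histone level differed 2.23-fold between the highest and the lowest library and did not separate NOD from B6. All 68 genes together had 38115 and 61114 normalised reads in NOD replicates 1 and 5, 32176 in NZB, 71808 in v6.5 and 52334 in B6. The B6 value thus lay between those of the NOD lines, NZB was the lowest and v6.5 the highest. The NOD lines averaged 49615 ± 16263 normalised reads (SD, n = 2), and NOD replicate 5 was 1.60-fold above NOD replicate 1. As a share of the recovered reads, the genes made up 0.324% (95% Wilson interval 0.320 to 0.328) of NOD replicate 1, 0.590% (0.587 to 0.593) of NOD replicate 5, 0.326% (0.323 to 0.330) of NZB, 0.618% (0.613 to 0.623) of v6.5 and 0.277% (0.274 to 0.280) of B6. Without Rn45s in the total, the share was 0.378% and 0.601% in the NOD lines, 0.333% in NZB, 0.685% in v6.5 and 0.472% in B6. These intervals cover counting error only. A higher share of cells in S phase and more histone RNA per cell cannot be told apart in such bulk libraries.

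**Figure D1:**
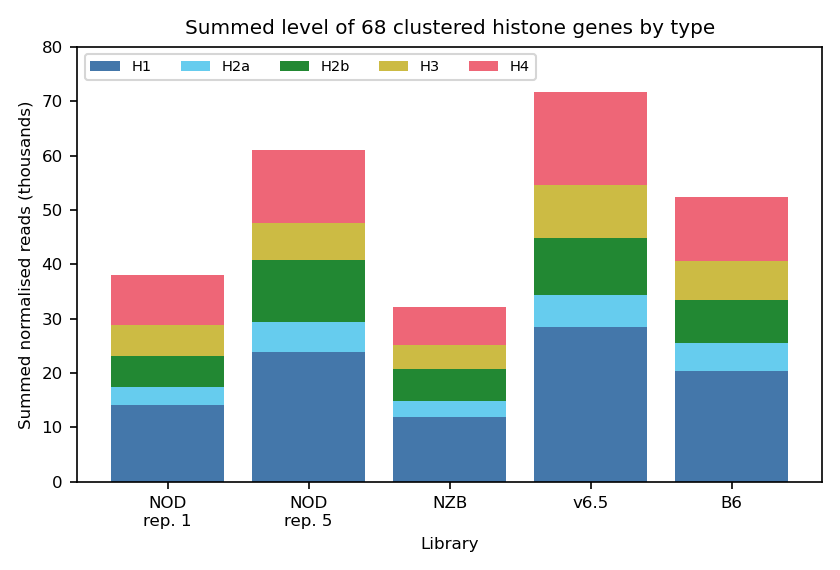
Summed normalised reads (y axis, in units of 1000) of the 68 clustered histone genes in each library (x axis), stacked by histone type, 1 library per bar and no error. The bars reach 38115 and 61114 in NOD replicates 1 and 5, 32176 in NZB, 71808 in v6.5 and 52334 in B6, and H1 takes a similar part of each.

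The balance between histone types moved far less than the sum. The H1 genes took 36.8% to 39.6% of the histone level over the 5 libraries, H4 22.0% to 24.2%, H2b 14.6% to 18.8%, H3 11.1% to 15% and H2a 8.24% to 10%. The Hist1 cluster took 85% to 87.5%. Per type, H1 had 14099 and 23943 normalised reads in NOD replicates 1 and 5, 11843 in NZB, 28407 in v6.5 and 20323 in B6. H2a had 3257 and 5419 in the NOD lines, 3071 in NZB, 5914 in v6.5 and 5235 in B6. The B6 value lay within the range of the NOD lines for both types. H2b had 5802 and 11516 in the NOD lines, 5863 in NZB, 10514 in v6.5 and 7888 in B6. H3 had 5719 and 6781 in the NOD lines, 4335 in NZB, 9773 in v6.5 and 7238 in B6. H4 had 9238 and 13455 in the NOD lines, 7063 in NZB, 17200 in v6.5 and 11651 in B6. H3 was the type in which both NOD lines lay below B6, and v6.5 was the highest library in every type but H2b.

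Among single genes the level spanned 3 orders of magnitude. Of the 68 genes, 58 were tested, and the median tested gene had 855 normalised reads per kb of its model as a mean over the 5 libraries, with a range of 9.16 to 11980. Hist1h4d was the highest per kb, at 2269 and 3125 normalised reads in NOD replicates 1 and 5, 1974 in NZB, 8626 in v6.5 and 5870 in B6. All 3 NOD and NZB libraries lay below v6.5 and B6 there, but the log2 fold change of NOD against B6, -1.14 (SE 0.45), did not pass the test (limma adjusted p = 0.199). Hist1h1a, one of the somatic linker histones, had 2554 and 7686 normalised reads in the NOD lines, 4279 in NZB, 12353 in v6.5 and 8635 in B6, a 3-fold spread between the NOD lines themselves. Hist1h1c, another, ran the other way, at 6329 and 7720 in the NOD lines, 3359 in NZB, 4638 in v6.5 and 3839 in B6. Both NOD lines were above every other library for Hist1h1c, as for 12 of the 58 tested genes, against 18.5% of all genes (log2 fold change against B6 0.86, SE 0.46, limma adjusted p = 0.344).

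The other types had their own dominant genes. Hist2h2bb held the most H2b reads, at 2428 and 5655 normalised reads in the NOD lines, 2939 in NZB, 5769 in v6.5 and 3921 in B6, and all of its 50-base stretches also occur in another gene. Hist1h3e led H3 per kb as a mean over the 5 libraries, at 3028 and 2678 normalised reads in the NOD lines, 1307 in NZB, 1735 in v6.5 and 1245 in B6. It was higher in both NOD lines than in the rest (log2 fold change against B6 1.19, SE 0.41, limma adjusted p = 0.140). Next among H3 genes, Hist1h3g had 479 and 728 in the NOD lines, 554 in NZB, 2050 in v6.5 and 1454 in B6, and per kb it was above Hist1h3e in v6.5 and B6. Hist1h4c, the next H4 gene, had 1400 and 2486 in the NOD lines, 1053 in NZB, 1063 in v6.5 and 625 in B6. The H2a genes were lower: Hist1h2ak had 462 and 1164 in the NOD lines, 649 in NZB, 1604 in v6.5 and 1295 in B6, and Hist3h2a had 709 and 730 in the NOD lines, 592 in NZB, 1606 in v6.5 and 871 in B6. None of Hist1h3g, Hist1h4c, Hist1h2ak, Hist3h2a and Hist2h2bb passed the test of NOD against B6.

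**Figure D2:**
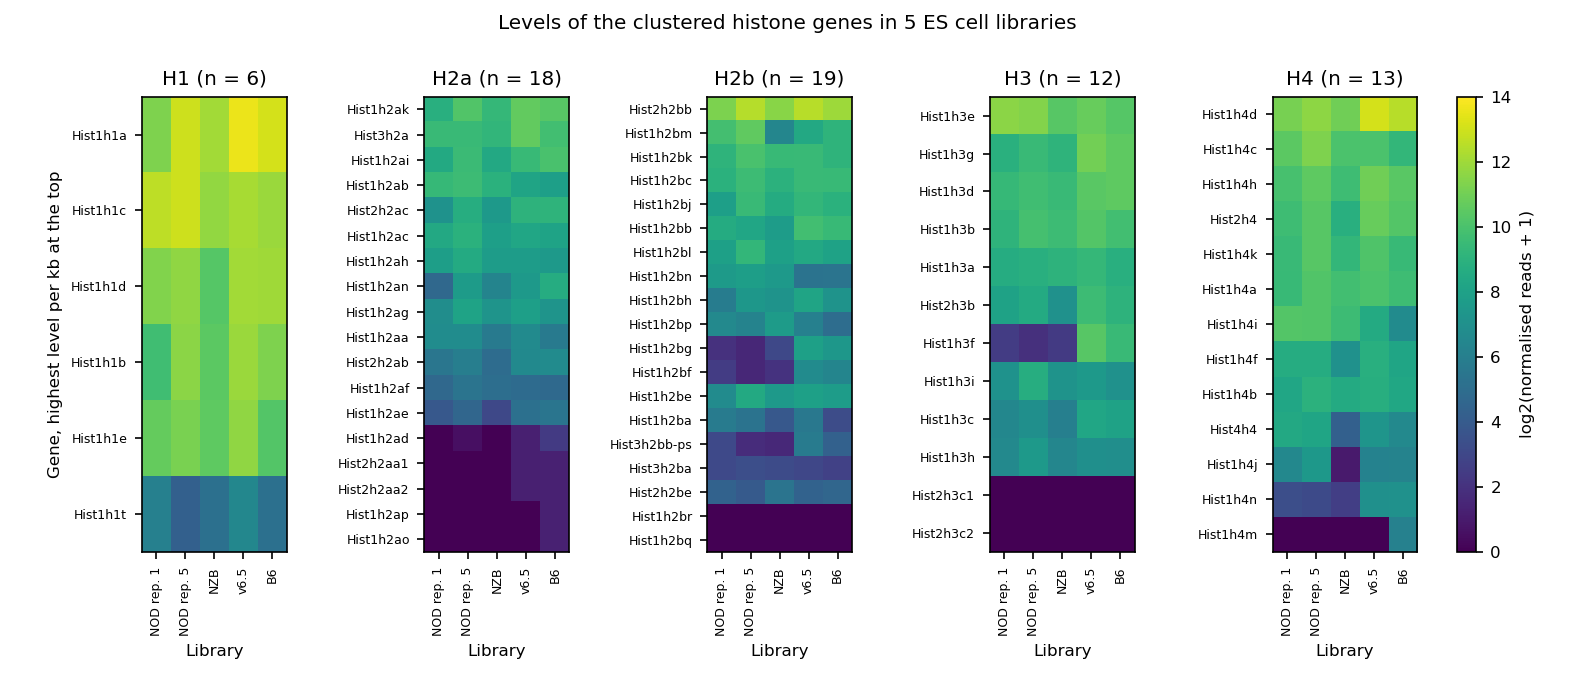
Level of each of the 68 clustered histone genes (rows, by type, highest per kb at the top) in each library (columns), as log2(normalised reads + 1), 1 value per cell of the map. Dark cells in the NOD and NZB columns beside bright ones in v6.5 and B6 mark Hist1h3f, Hist1h2bg, Hist1h2bf and Hist1h4n.

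Hist1h1t and Hist1h2ba, known as testis-specific in mouse, were low in all lines. Hist1h1t, the testis linker histone, had 68.6 and 18.4 normalised reads in the NOD lines, 35.0 in NZB, 87.9 in v6.5 and 35.2 in B6. The testis H2b gene Hist1h2ba had 56.4 and 38.8 in the NOD lines, 13.4 in NZB, 47.3 in v6.5 and 8.44 in B6. Of the 10 genes that were not tested, Hist1h2bq, Hist1h2br, Hist2h3c1 and Hist2h3c2 had no read in any library, and Hist1h2ad, Hist1h2ao, Hist1h2ap, Hist2h2aa1, Hist2h2aa2 and Hist3h2ba had at most 41 reads over the 5 libraries together. Most of these share nearly all of their sequence with another gene (88.7% to 100% of 50-base stretches in 7 of the 10), so their reads cannot be placed with certainty.

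NOD against B6 is the comparison the study was built on. In it 4 of the 58 tested genes passed a limma adjusted p of 0.05 (6.90%), against 3.13% of all 14280 genes tested: Hist1h3f, Hist1h2bg and Hist1h4m were lower in NOD, where 1.59% of all genes were lower, and Hist1h4i was higher, where 1.54% of all genes were. Of the genes called, Hist1h3f and Hist1h2bg were kept by the filter through their v6.5 and B6 reads, and Hist1h4m through its B6 reads alone. The median log2 fold change was -0.13 over the histone genes and 0.01 over all genes, with 26 histone genes above 0 and 32 below. Of all genes, 7207 lay above 0 and 7072 below. With the deposited scaling, without TMM, 6 genes were called higher and 4 lower, against 8.37% of all genes called, and the median of all genes moved to 0.77. The median turned on the NOD line used: it was -0.44 without replicate 5 and 0.23 without replicate 1. By type it was -0.24 for H1, -0.28 for H2a, -0.13 for H2b, -0.49 for H3 and 0.32 for H4, and by cluster 0.02 for Hist1 and -0.60 for Hist2, whose 6 tested genes all lay below 0 without passing the test. The B6 library had no replicate and was assumed to vary like the NOD lines.

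Hist1h3f, an H3 gene (mm9 chromosome 13, 23635921 to 23636823), showed the largest difference of the tested histone genes with reads in both NOD and B6. It had 4.57 and 2.91 normalised reads in NOD replicates 1 and 5, 4.12 in NZB, 1341 in v6.5 and 719 in B6. The NOD and NZB libraries were near the floor and the other libraries high, with no overlap. All reads were aligned to a C57BL/6J assembly, and the part of strain sequence differences in these values was not tested. In NOD it fell far below B6 (log2 fold change -7.27, SE 0.86, limma adjusted p = 0.00254). The NOD values rest on 3 and 6 reads, and the pooled NOD reads were 217-fold below the B6 reads at equal depth, with an exact counting interval of 114 to 478. Hist1h2bg, an H2b gene, followed it, with 3.05 and 1.94 normalised reads in the NOD lines, 7.21 in NZB, 246 in v6.5 and 169 in B6. Again both NOD lines and NZB lay far below the others, and the gene fell in NOD against B6 (log2 fold change -5.62, SE 0.98, limma adjusted p = 0.0132). These NOD values rest on 2 and 4 reads, and the pooled ratio was 76.6-fold, with an exact counting interval of 34.2 to 213.

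Hist1h4m, an H4 gene, had no read in either NOD line, in NZB or in v6.5, and 69.0 normalised reads (49 reads) in B6. Its level was therefore at least 22.9-fold lower in NOD than in B6, against a floor of 3 reads per library (log2 fold change -6.13 with a pseudocount of 1, SE 1.34, limma adjusted p = 0.0342). The gene entered the test through its B6 reads alone, and the NOD lines, both without a read, gave it no spread of their own. Its p-value therefore rests on spread taken from other genes. Hist1h4m shares 89.8% of its 50-base stretches with Hist1h4n, so how reads fall between these copies is uncertain. When v6.5 was counted with B6, as the header groups them, the difference was not called (limma adjusted p = 0.306). Hist1h4i, also an H4 gene, had 1227 and 1186 normalised reads in the NOD lines, 782 in NZB, 377 in v6.5 and 107 in B6. Both NOD lines were highest and B6 lowest. In NOD it rose 11.3-fold over B6 (log2 fold change 3.48, SE 0.43, limma adjusted p = 0.00299), and 28.9% of its stretches occur in another gene.

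**Figure D3:**
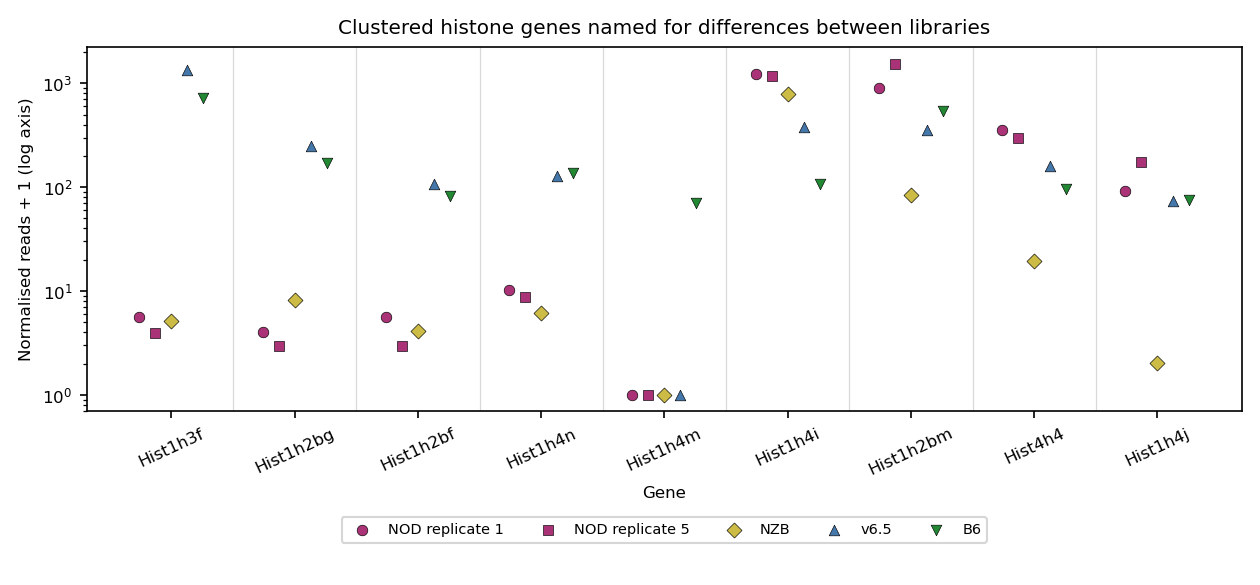
Normalised reads + 1 (log axis) of 9 clustered histone genes (x axis), 1 point per library. Hist1h3f lies at 2.91 to 4.57 normalised reads in the NOD lines and NZB, against 1341 in v6.5 and 719 in B6, whereas Hist1h2bm, Hist4h4 and Hist1h4j have their lowest value in NZB.

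A pair of genes missed the threshold with the same pattern and are named after their values were seen. Hist1h2bf had 4.57 and 1.94 normalised reads in the NOD lines, 3.09 in NZB, 107 in v6.5 and 81.6 in B6, and Hist1h4n had 9.15 and 7.75 in the NOD lines, 5.15 in NZB, 128 in v6.5 and 135 in B6. The limma adjusted p of NOD against B6 was 0.0508 for each, and edgeR's quasi-likelihood test on the recovered reads gave 0.000523 for Hist1h2bf and 0.000513 for Hist1h4n. With Hist1h3f and Hist1h2bg they made 4 of the 58 tested genes (6.90%) that were at least 10-fold lower (normalised reads + 1) in both NOD lines and NZB than in v6.5 and B6, against 12 of all 14280 genes (0.0840%). This pattern was counted after it was seen, and 8 genes outside the clusters share it. All 4 histone genes passed the filter through their v6.5 and B6 reads only.

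Hist1h3f, Hist1h2bg and Hist1h2bf lie within 30139 bases of each other in the Hist1 cluster. That stretch holds 7 of the histone genes, and the other 4, Hist1h4f, Hist1h1d, Hist1h3e and Hist1h2ae, were not 10-fold lower. Of these, Hist1h1d and Hist1h2ae were lower in both NOD lines and NZB than in v6.5 and B6, without reaching 10-fold. This held for 18 of the 58 tested genes (31.0%), against 23.0% of all genes. Hist1h3e, which shares 41.0% of the stretches of Hist1h3f, was higher in the NOD lines than elsewhere. Summed over Hist1h3e and Hist1h3f, the level was 3033 and 2681 normalised reads in the NOD lines, 1311 in NZB, 3076 in v6.5 and 1965 in B6. Over this sum the NOD lines were above B6 and the 2 patterns were no longer visible. A similar sum over Hist1h4i, Hist1h4m and Hist1h4n was 1236 and 1193 in the NOD lines, 787 in NZB, 506 in v6.5 and 311 in B6. Hist1h4i, which shares 19.2% of its stretches with Hist1h4n, made up nearly all of it in the NOD lines. NOD thus stayed above B6 through Hist1h4i, and this sum cannot show whether reads moved between copies. Hist1h2bg shares 45.0% of its stretches with Hist1h2bc, and Hist1h2bf 47.8% of its own with Hist1h2bg. Summed over Hist1h2bc, Hist1h2bf and Hist1h2bg, the level was 501 and 791 normalised reads in the NOD lines, 526 in NZB, 1068 in v6.5 and 944 in B6, a fold of 0.684 in NOD over B6. Both NOD lines were still below B6 there, by far less than Hist1h2bg alone. Whether reads moved between these copies was not tested. Among the 33 tested genes that share at most 50% of their stretches with another gene, Hist1h3f and Hist1h2bg were called lower in NOD than in B6 and Hist1h4i higher. Hist1h3f, at 49.3%, and Hist1h2bg, at 49.7%, lie just under that limit.

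**Figure D4:**
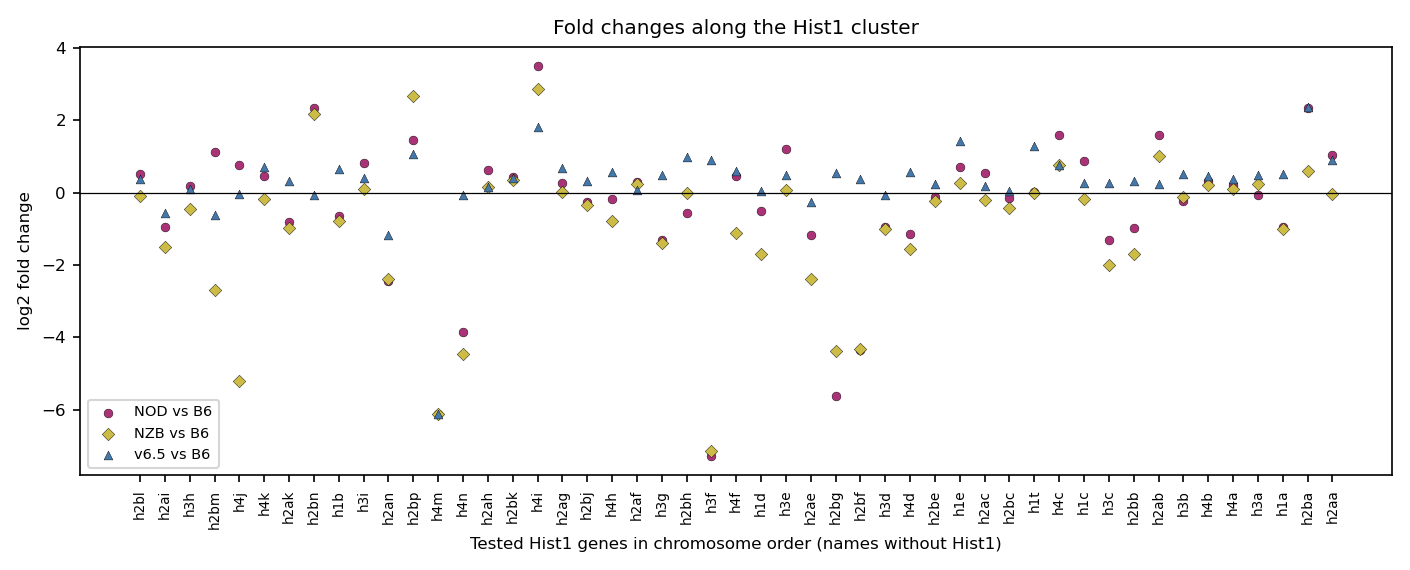
Log2 fold change (y axis) of the 49 tested Hist1 genes in chromosome order (x axis, not to distance), against B6, for NOD (mean of 2 lines), NZB and v6.5. Low NOD and NZB points mark Hist1h3f, Hist1h2bg and Hist1h2bf, whereas the other 4 genes of that stretch lie between -1.18 and 1.19 in NOD and between -2.40 and 0.07 in NZB, and all 3 comparisons share the B6 library.

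The genes closest to no change between NOD and B6 were Hist1h3a, Hist1h2be and Hist2h2bb, the last with its values given above. Hist1h3a had 407 and 458 normalised reads in the NOD lines, 536 in NZB, 640 in v6.5 and 455 in B6. Hist1h2be had 105 and 358 in the NOD lines, 179 in NZB, 246 in v6.5 and 210 in B6. B6 lay between the NOD lines for all 3 genes. The NOD lines were close together for Hist1h3a and over 2-fold apart for Hist1h2be and Hist2h2bb. Of the 58 tested genes, 43 were higher in NOD replicate 5 than in NOD replicate 1, against 50.4% of all genes tested. The median log2 difference was 0.57 (1.48-fold), against 0.01 over all genes tested. Over 2-fold differences between the NOD lines were found for 15 of the 58, among them Hist1h1a and Hist1h2be, against 21.2% of all genes.

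NOD against NZB sets 2 autoimmune-prone strains side by side. Here 3 of the 58 genes passed the test, all higher in NOD, against 0.616% of all genes called in either direction and 0.273% called higher: Hist1h2bm, Hist4h4 and Hist1h4j. The median log2 fold change was 0.43, against 0.02 over all genes. Above 0 lay 48 of 58 genes, against 7303 of all 14280. Hist1h2bm had 910 and 1549 normalised reads in the NOD lines, 83.4 in NZB, 353 in v6.5 and 542 in B6. NZB was the low library, and the gene rose 14.8-fold in NOD over NZB (log2 fold change 3.82, SE 0.48, limma adjusted p = 0.00503). Without replicate 5 the log2 fold change was 3.43 and without replicate 1 it was 4.20.

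The other genes called against NZB both encode H4. Hist4h4 had 351 and 295 normalised reads in the NOD lines, 18.5 in NZB, 158 in v6.5 and 94.3 in B6. It rose 17.4-fold in NOD over NZB (log2 fold change 4.04, SE 0.64, limma adjusted p = 0.0146), and 8.52% of its stretches occur in another gene. Hist1h4j had 91.4 and 175 normalised reads in the NOD lines, 1.03 in NZB (1 read), 73.0 in v6.5 and 74.6 in B6. The ratio of the pooled NOD reads to the NZB read was 150, with an exact counting interval of 26.8 to 5953 (log2 fold change 5.97, SE 0.86, limma adjusted p = 0.00921). Its log2 fold change was 5.51 without replicate 5 and 6.44 without replicate 1. Counted after it was seen, NZB was at least 4-fold below all 4 other libraries for these 3 of 58 genes (5.17%) and for 58 of all 14280 genes (0.406%). NZB was the lowest library for 22 of the 58 genes (37.9%), against 16.7% of all genes.

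NOD against v6.5 gave 2 lower genes and no higher one among the 58, against 1.65% of all genes called in either direction and 0.672% called lower. They were Hist1h3f (log2 fold change -8.17, SE 0.86, limma adjusted p = 0.00422) and Hist1h2bg (log2 fold change -6.16, SE 0.98, limma adjusted p = 0.0119), whose values are given above. The median log2 fold change was -0.47, against 0.02 over all genes. Below 0 lay 39 of 58 genes, against 6989 of all 14280. Counted after it was seen, v6.5 was the highest library for 23 of the 58 genes (39.7%), against 18.3% of all genes.

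In NZB against B6 1 gene passed the test, Hist1h3f, which fell 175-fold on 4 NZB reads, with an exact counting interval of 67.8 to 643 (log2 fold change -7.14, SE 0.995, limma adjusted p = 0.0170), against 0.140% of all genes called in either direction and 0.0840% called lower. With the deposited scaling or DESeq2's size factors, Hist1h4i was called too, as higher in NZB. The median was -0.44, against -0.03 over all genes. In v6.5 against B6 no histone gene passed the limma test, nor did any with DESeq2 on the recovered reads, against 0.00700% of all genes called by limma, which is 1 gene. An unadjusted limma p under 0.05 was found for 3 of 58, against 2.21% of all genes. The median was 0.41, against -0.02 over all genes. Above 0 lay 46 of 58 genes, against 6881 of all 14280. Both comparisons set a single library against another, and their p-values, like those of the other comparisons, rest on the spread between the NOD lines. The 5 comparisons share libraries.

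On the recovered reads, edgeR's quasi-likelihood test called more genes in most comparisons, among the histone genes and among all genes. In NOD against B6 it called 10 of the 58, 4 higher and 6 lower, against 8.10% of all genes. Besides the limma calls these were Hist1h2bn, Hist1h4c and Hist1h2ab, which were higher in NOD, and Hist1h2bf, Hist1h4n and Hist1h2an, which were lower, all but Hist1h4c named after their values were seen. When v6.5 was counted with B6, limma also called 10, against 9.24% of all genes, and Hist1h4m was not among them. In NOD against NZB edgeR called the same 3 genes as limma, against 2.58% of all genes. In NOD against v6.5 it called 9 of the 58, 3 higher and 6 lower, against 5.86% of all genes, and in NZB against B6 8, 1 higher and 7 lower, against 2.04%. Each of those lists holds Hist1h3f, Hist1h2bg, Hist1h2bf and Hist1h4n among the lower genes and Hist1h4i among the higher ones. In v6.5 against B6 it called 0 of the 58, against 0.231% of all genes.

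Other histone genes and the genes that act on histone messages were examined beside the clusters. Of 11 tested genes for replication-independent variants, such as H3f3b and H2afz, whose messages have poly(A) tails, none was called in any comparison by limma, edgeR or DESeq2. Their median was -0.15 in NOD against B6, where 0 had an unadjusted limma p under 0.05, against 18.9% of all genes. Of 19 genes for histone transcription and 3′ end processing none was called by limma in NOD against B6 (median -0.53), and 6 had an unadjusted p under 0.05, against the same 18.9%. On the recovered reads, edgeR called Slbp and Ccne2 lower and DESeq2 Ccne2. Slbp, which encodes the stem-loop binding protein, had 340 and 543 normalised reads in the NOD lines, 924 in NZB, 1766 in v6.5 and 1314 in B6. Both NOD lines were below the other libraries, and Slbp fell in NOD against v6.5 (limma adjusted p = 0.0464) but did not pass against B6 (log2 fold change -1.61, SE 0.44, limma adjusted p = 0.0759). Ccne2, a cyclin E, also fell in NOD against v6.5 (limma adjusted p = 0.0465). Npat, a coactivator of histone gene transcription, had 1425 and 1258 normalised reads in the NOD lines, 1620 in NZB, 2070 in v6.5 and 2256 in B6 (log2 fold change against B6 -0.75, SE 0.41, limma adjusted p = 0.348).

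Of 28 genes of DNA replication and S phase and 16 of histone chaperones none was called by limma in NOD against B6, with medians of -0.60 and -0.32. An unadjusted limma p under 0.05 was found for 6 of the 28 and 3 of the 16, close to the 18.9% of all genes. In NOD against v6.5 the counts were 11 of the 28 and 2 of the 16, beside 2365 of all 14280 genes. In NOD against NZB they were 3 and 1, beside 1142. In NOD against B6, Cdc6, which loads the replicative helicase, was called lower by edgeR, and Nasp, an H3 and H4 chaperone, by edgeR and DESeq2. The replication genes summed to 45230 and 58730 normalised reads in the NOD lines, 70850 in NZB, 83836 in v6.5 and 73734 in B6. Both NOD lines were lowest, and that order differs from the order of the histone sum. NZB had the lowest histone sum and a replication sum near that of B6, and NOD replicate 5 was above B6 in the histone sum and below it in the replication sum. RNAs without a poly(A) tail differed widely between libraries: 11 of them summed to 2468597 and 613078 normalised reads in the NOD lines, 439990 in NZB, 1321652 in v6.5 and 8041409 in B6. Of the 9 tested, Rprl3 and Rprl1, both annotated as relatives of the ribonuclease P RNA, rose in NOD against B6. Rn45s made up most of that sum in B6. Without it the other 10 summed to 789458 and 410981 normalised reads in the NOD lines, 244862 in NZB, 188161 in v6.5 and 224026 in B6, with both NOD lines highest, and the median log2 fold change of the 9 tested RNAs in NOD against B6 was 1.66. The order of the libraries thus turned on Rn45s, and the part of poly(A) selection in the histone values was not tested.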

How the data were processed

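Single-end 50-base reads of poly-dT selected, strand-kept RNA were aligned by the authors with STAR (version 2.2.0c in the submitters' notes) to mm9, a C57BL/6J assembly, after CASAVA 1.8.2, counted over RefSeq exons with HOMER and compared with edgeR through HOMER. How reads that match several histone genes were placed is not given in the sources used here. The deposited signal values are read counts that the authors rescaled to equal library totals, with neither a log nor a length correction. The table's columns of the authors' comparisons (log2 fold changes, p-values, FDR) were not used. Each column moved in equal steps, 1 per read: 100% of values under 3000 were whole multiples of that step within a tolerance of 0.05 reads, so reads were recovered.

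Deposited values were divided by TMM factors (edgeR 4.0.16) and log2(value + 1) was fitted with limma-trend (limma 3.58.1, R 4.3.3) over the 5 libraries with 1 mean per strain, which leaves 1 residual degree of freedom, moderated across genes. P-values were adjusted by Benjamini-Hochberg over the 14280 genes kept by filterByExpr on the recovered reads, with a threshold of 0.05. They measure the spread between these libraries, since no label says that lines were cultured or sequenced apart. edgeR's quasi-likelihood test on the recovered reads called 1156 genes in NOD against B6, and DESeq2 1.42.0 was run too. The model was also run on simulated counts, drawn for every library with a common dispersion taken from the NOD lines. That run cannot show whether the lone libraries vary like the NOD lines.

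Named genes were those called in NOD against B6, the 2 highest per kb in each type, those called in other comparisons (up to 5 each) and the 3 nearest to no change, plus called genes of the other lists and Rn45s, Slbp and Npat. The genes, lists and rules were chosen with earlier results of these data known. Alternatives were another test, scaling, pseudocount (0.5 and 5) and filter, the NOD and B6 libraries alone, v6.5 joined to B6, and leaving out a NOD line. Patterns over libraries and sums of similar genes were added after seeing the data. Coordinates of genes are mm9, as in the table, and those of promoters are GRCm38.p6.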

Additional observations from a re-analysis of the deposited data

How the results depend on the processing

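Of 10 called results of named histone genes, 77 of 87 alternative values kept their direction and stayed past the threshold, 9 lost the call and 1 had no adjusted p. Without a filter on low values, which adds genes with few reads to the fit, the calls of Hist1h3f (limma adjusted p = 0.0974) and Hist1h2bg (0.159) in NOD against B6 were lost, and the genes called in NOD against NZB went to 0, against 5.96% of all genes. Hist1h3f and Hist1h2bg also lost their calls without that filter in NOD against v6.5, and Hist1h3f lost its call in NZB against B6. Hist1h4m in NOD against B6 had no adjusted p in DESeq2 and left the table with at least 10 reads in 2 libraries.

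In NOD against B6, 4 histone genes were called (1 higher and 3 lower), against 10 with edgeR, 10 with the deposited scaling (6 higher and 4 lower), 9 with the NOD and B6 libraries alone and 10 with v6.5 joined to B6. Of all genes these settings called 8.10%, 8.37%, 6.22% and 9.24%, in that order. In NOD against v6.5, 2 were called, against 9 with edgeR, 7 with DESeq2 (3.61% of all genes) and 7 with at least 10 reads in 2 libraries (3.15%). In NZB against B6, 1 was called, against 8 with edgeR, 6 with DESeq2 (1.34% of all genes), 2 with DESeq2's size factors (0.203%), 2 with the deposited scaling (0.924%), 6 without a filter (8.55%) and 4 with at least 10 reads (0.710%). The NZB calls without a filter did not include Hist1h3f. They were Hist1h4i, Hist1h4m and the low-read genes Hist1h2ao, Hist1h2ap, Hist2h2aa1 and Hist2h2aa2, which the main filter leaves out. In v6.5 against B6, 3 were called without a filter (8.39% of all genes) and none in the main test. The causes of these moves were not tested.

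The deposited scaling moved the median of all genes to 0.77 in NOD against B6, and with it the histone medians to 0.64 in NOD against B6, 0.50 in NZB against B6 and 1.11 in v6.5 against B6. As a share of all reads, the log2 ratio of the summed level was 0.72, 0.24 and 1.16 in these comparisons. On that scaling Hist3h2a (0.50), Hist2h2bb (0.69), Hist1h3a (0.70) and Hist1h2be (0.66) turned to higher in NOD than in B6, all without passing the test. Hist2h2bb (0.044 and 0.038) and Hist1h2be (0.16 and 0.14) did so with edgeR and DESeq2. Leaving out a NOD line gave medians of -0.44 to 0.23 against B6, 0.14 to 0.86 against NZB and -0.79 to -0.07 against v6.5. No paired analysis was possible because only NOD has replicate numbers.

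Genes with under 10 reads, 11 to 18 of the 68 in a library, cannot show a fall from there.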
